A study of Homo sapiens with 9 samples.

Results

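The HOX cluster genes are homeobox transcription factor genes that lie side by side on 4 chromosomes. They were chosen by name alone, as protein-coding genes whose symbol is HOX, a cluster letter from A to D and a number. The 38 members described here, of 39 such genes, come from a count table of 62700 genes, and 36 of them passed the filter on low counts and were tested among 17576 genes. During development HOX genes are switched on in the order in which they lie in a cluster, and their combined products set the identity of tissue along the body axis. Genes with low position numbers act towards the head, and genes with high numbers act in the lower trunk, the limbs and the urogenital tract. HOX proteins bind DNA together with cofactors of the PBX, MEIS and PKNOX families, while Polycomb complexes keep silent HOX genes off and Trithorax proteins keep active ones on. Kidney cells are known to keep a HOX pattern of the lower trunk, and the paralogs with number 11 are needed for the kidney to form.

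PolyA-selected RNA was sequenced from 293T, an immortal cell line of embryonic kidney origin that takes up plasmids readily. In every group 300000 cells received a plasmid by reverse transfection, and RNA was taken about 48 hours later. One group received an empty vector. Another received HA-CIC::DUX4, and the last received HA-CIC(ex20)::NUTM1(ex6). Each group has 3 libraries, and replicates came from transfections on different days. HA is a short peptide tag. CIC (capicua) is a transcriptional repressor that binds DNA, and sarcomas can carry it fused to DUX4 or NUTM1. The labels place the junction of CIC::NUTM1 at exon 20 of CIC and exon 6 of NUTM1. All groups share the 293T background. Expression was transient, from plasmids, in a line that is not of sarcoma origin, and the share of cells that took up a plasmid was not analysed here.

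The members lie in GRCh38 at chr7:27100354-27200106 (HOXA, 10 genes, minus strand), chr17:48528526-48729178 (HOXB, 10 genes, minus strand), chr12:53938765-54056030 (HOXC, 9 genes, plus strand) and chr2:176092891-176190907 (HOXD, 9 genes, plus strand). RefSeq promoter windows, which run from 250 bases before to 50 bases after a start site, were at hand for 20 members in 26 distinct windows. The stretches from 250 to 21 bases before the start of HOXA11, HOXA13 and HOXD13 are shown as examples of different patterns. HOXA11 moved in opposite directions with the fusions, HOXA13 fell with CIC::DUX4, and HOXD13, the highest of all members per length, rose with CIC::NUTM1. Other members, such as HOXB8 and HOXA3, differed more between the fusions (log2 fold changes 0.86 and 0.81) than HOXD13 (0.50) and HOXA13 (0.45). The sequences are from RefSeq for GRCh38.p14, 5′ to 3′ on the gene's strand, with CpG dinucleotides in capitals. They lie at chr7:27185253-27185482 (minus strand), chr7:27200112-27200341 (minus strand) and chr2:176092471-176092700 (plus strand).
HOXA11: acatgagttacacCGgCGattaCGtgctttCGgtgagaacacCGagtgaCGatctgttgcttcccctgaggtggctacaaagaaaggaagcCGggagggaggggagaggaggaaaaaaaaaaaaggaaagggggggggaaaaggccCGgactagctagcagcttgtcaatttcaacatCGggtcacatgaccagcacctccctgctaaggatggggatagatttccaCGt
HOXA13: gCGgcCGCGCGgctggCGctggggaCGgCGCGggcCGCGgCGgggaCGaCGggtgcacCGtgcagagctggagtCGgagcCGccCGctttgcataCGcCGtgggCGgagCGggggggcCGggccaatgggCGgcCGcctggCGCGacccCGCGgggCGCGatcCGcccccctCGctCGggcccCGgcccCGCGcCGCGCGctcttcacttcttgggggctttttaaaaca
HOXD13: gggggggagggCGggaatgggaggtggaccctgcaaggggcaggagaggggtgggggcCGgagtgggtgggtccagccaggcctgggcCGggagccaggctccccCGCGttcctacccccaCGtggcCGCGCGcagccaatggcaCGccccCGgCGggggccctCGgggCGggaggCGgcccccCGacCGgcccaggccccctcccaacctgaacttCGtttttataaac
The stretch of HOXA11 held 10 CpG dinucleotides and had a GC content of 52.6%. That of HOXA13 held 39 at 78.7% GC, and that of HOXD13 held 18 at 75.2% GC.

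Over the 26 promoter windows of members the median was 22.5 CpG dinucleotides, against 14 in 34796 windows of all genes. The octamers bound by CIC (TGAATGAA, TGAATGGA, TCAATGAA and TCAATGGA, either strand) were in 0 of the 26 windows and in 3.75% of all windows. A PBX-HOX site (TGATTNAT, either strand) was in the windows of 2 members, HOXA2 and HOXD11, and in 2.82% of all windows. The TALE site TGACAG was in the windows of 4 members, HOXA2, HOXA4, HOXA13 and HOXD4, and in 15.8% of all windows. The site TTTATNG, read by CDX proteins and HOX proteins of high number, was in the windows of 6 members, HOXA3, HOXA9, HOXA10, HOXC4, HOXC5 and HOXD8, and in 9.75% of all windows. HOXC4 and HOXC5 share 1 window. These matches describe the letters of the windows only.

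Library totals ran from 16970771 to 33655445 counts. Levels are given as CPM, the usual counts-per-library scale after TMM scaling, and a floor of 3 counts corresponded to 0.0878 to 0.18 CPM (counting error only). Mitochondrial transcripts took 1.2 to 2.14% of counts. The 6 markers of the parent line summed to 935 to 995 CPM with empty vector, 1079 to 1135 with CIC::NUTM1 and 992 to 1045 with CIC::DUX4, and VIM and LIN28B were among those well detected in every library. These 6 markers went both ways: 2 rose and 1 fell with each fusion. Between the fusions 1 was higher and 1 lower in CIC::NUTM1 cells. Of 5 blood markers, HBB was at 0 in all libraries and the list summed to 1.20 to 3.21 CPM with empty vector, 3.94 to 5.94 with CIC::NUTM1 and 1.82 to 2.56 with CIC::DUX4. The 4 endothelial markers summed to 0.481 to 0.908, 3.52 to 6.36 and 1.53 to 7.67 CPM, mostly KDR, with CDH5 at or under 0.114 CPM. Of the 3 blood markers tested, 2 rose with CIC::NUTM1 and 1 with CIC::DUX4, and the 1 endothelial marker tested rose with CIC::NUTM1. Among all genes tested 11.5% rose and 3.83% fell with CIC::NUTM1, and 6.96% rose and 1.27% fell with CIC::DUX4. Between the fusions 4.97% were called higher and 1.64% lower. The 5 fibroblast markers summed to 38.4 to 43.3 CPM over all libraries. Of the 4 fibroblast markers tested, LUM and DCN rose and COL1A1 fell with CIC::NUTM1, and LUM rose with CIC::DUX4. LUM was at 2.66 ± 0.511, 7.23 ± 0.636 and 5.49 ± 1.004 CPM in empty vector, CIC::NUTM1 and CIC::DUX4 (SD, n = 3), and DCN was under 1 CPM on average in each. The part of these markers in the HOX results was not tested. In bulk RNA, fewer cells with a transcript and less transcript per cell cannot be told apart. The CIC, NUTM1 and DUX4 transcripts were not analysed here.

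All 38 members had counts in at least 1 library, and 4 of the 5 highest per length had numbers from 9 to 13. Set per kilobase of merged exons, HOXD13, known for its role in digits and the urogenital tract, stood first. HOXD13 was at 84.1, 84.8 and 87.2 CPM per kb with empty vector, 125.7, 107.5 and 112.9 with CIC::NUTM1, and 82.3, 80.5 and 82.4 with CIC::DUX4. HOXB9 followed at a mean of 57.6 CPM per kb over the 9 libraries, then HOXA5 at 39.8, HOXA10 at 32.8 and HOXA11 at 29.7. The first 3 places were the same in every group. HOXA10 stood above HOXA11 with empty vector (33.2 ± 1.21 against 26.4 ± 0.886 CPM per kb, SD, n = 3), but with CIC::NUTM1 HOXA11 stood above HOXA10 (42.9 ± 3.80 against 39.3 ± 4.52 CPM per kb, SD, n = 3), a gap within their spread. At the other end, HOXB1, a hindbrain gene, had 5 counts in all, 4 of them in CIC::DUX4 replicate 1. HOXC5 had 49 counts over the 9 libraries and at most 8 in any. Both were left untested. HOXC12 and HOXD12 were tested at mean levels under 1.2 CPM in every group, where the SE of a log2 fold change was 0.43 to 0.60.

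**Figure D1:**
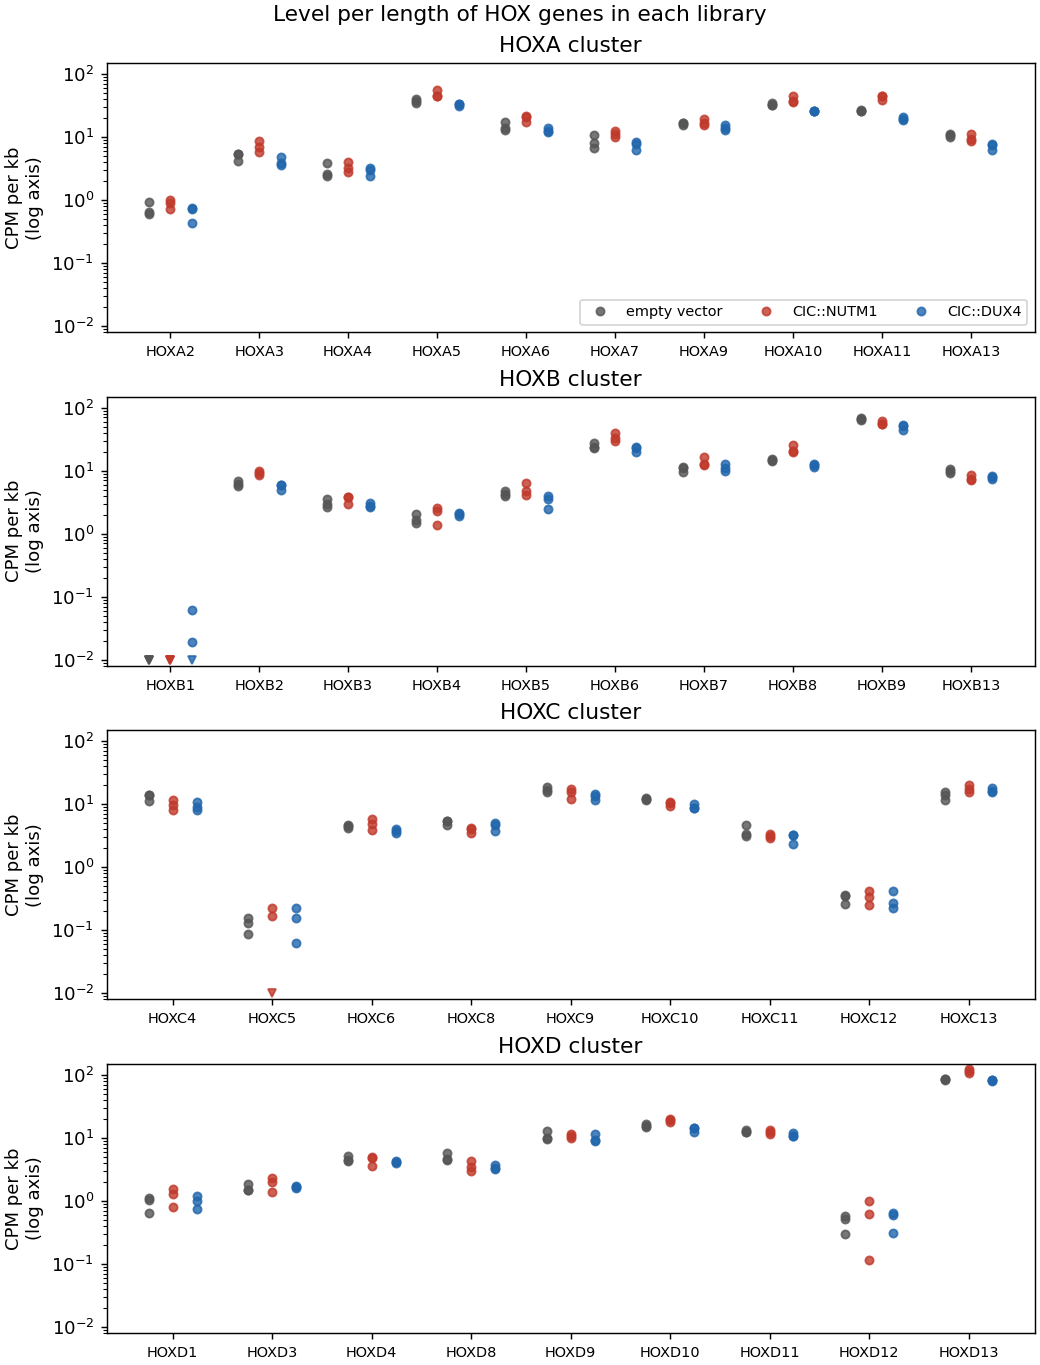
Level of each of the 38 HOX genes in CPM per kilobase of merged exons (log axis), by cluster and position number, with 1 point per library for empty vector (grey), CIC::NUTM1 (red) and CIC::DUX4 (blue); triangles mark values at or below 0.01. HOXD13 lies highest, at 80.5 to 125.7, and HOXB1 and HOXC5 lie lowest.

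Most of the HOX genes that moved rose with CIC::NUTM1, and all that moved with CIC::DUX4 fell. A gene was called where the Benjamini-Hochberg adjusted p of edgeR's quasi-likelihood test over all genes was under 0.05. With CIC::NUTM1 against empty vector, 11 of the 36 tested members rose, where 11.5% of all genes tested were called higher, and 3 fell, where 3.83% were called lower. With CIC::DUX4 against empty vector, 0 members rose, where 6.96% of all genes were called higher, and 8 fell, where 1.27% were called lower. At an unadjusted p under 0.05 only HOXC13 was higher with CIC::DUX4, and DESeq2 and limma-trend also called 0 members higher. Between the fusions, 12 members were higher in CIC::NUTM1 cells, where 4.97% of all genes were called higher, and 0 were lower, where 1.64% were called lower. The 0 of 36 lower is near the share of all genes. For lower members in that comparison the count was also 0 at an unadjusted p under 0.05 and with DESeq2 and limma-trend. Both comparisons against empty vector use the same 3 control libraries, so they are not independent.

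Among the 36 tested members the median log2 fold change was 0.23 with CIC::NUTM1, −0.21 with CIC::DUX4 and 0.29 between the fusions, and the median of all genes tested lay between −0.0053 and −9e-04. The log2 fold change was positive for 25 and negative for 11 members with CIC::NUTM1, positive for 6 and negative for 30 with CIC::DUX4, and positive for 34 and negative for 2 between the fusions. HOXA11 between the fusions was the 1 case in which a called log2 fold change reached 1. Of the 36, 18 were called in at least 1 comparison and 18 in none. Well-measured genes are called more readily, so the 26 members with a mean of at least 10 CPM were set against the 10124 tested genes at that level. Of these members 42.3% rose with CIC::NUTM1 (12.6% of all such genes), 30.8% fell with CIC::DUX4 (2.01%) and 46.2% were higher in CIC::NUTM1 than in CIC::DUX4 cells (7.27%). In the other directions 11.5% of these members fell with CIC::NUTM1 (5.99%), 0% rose with CIC::DUX4 (6.13%) and 0% were lower between the fusions (1.89%). The last of these is near the share of all such genes.

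**Figure D2:**
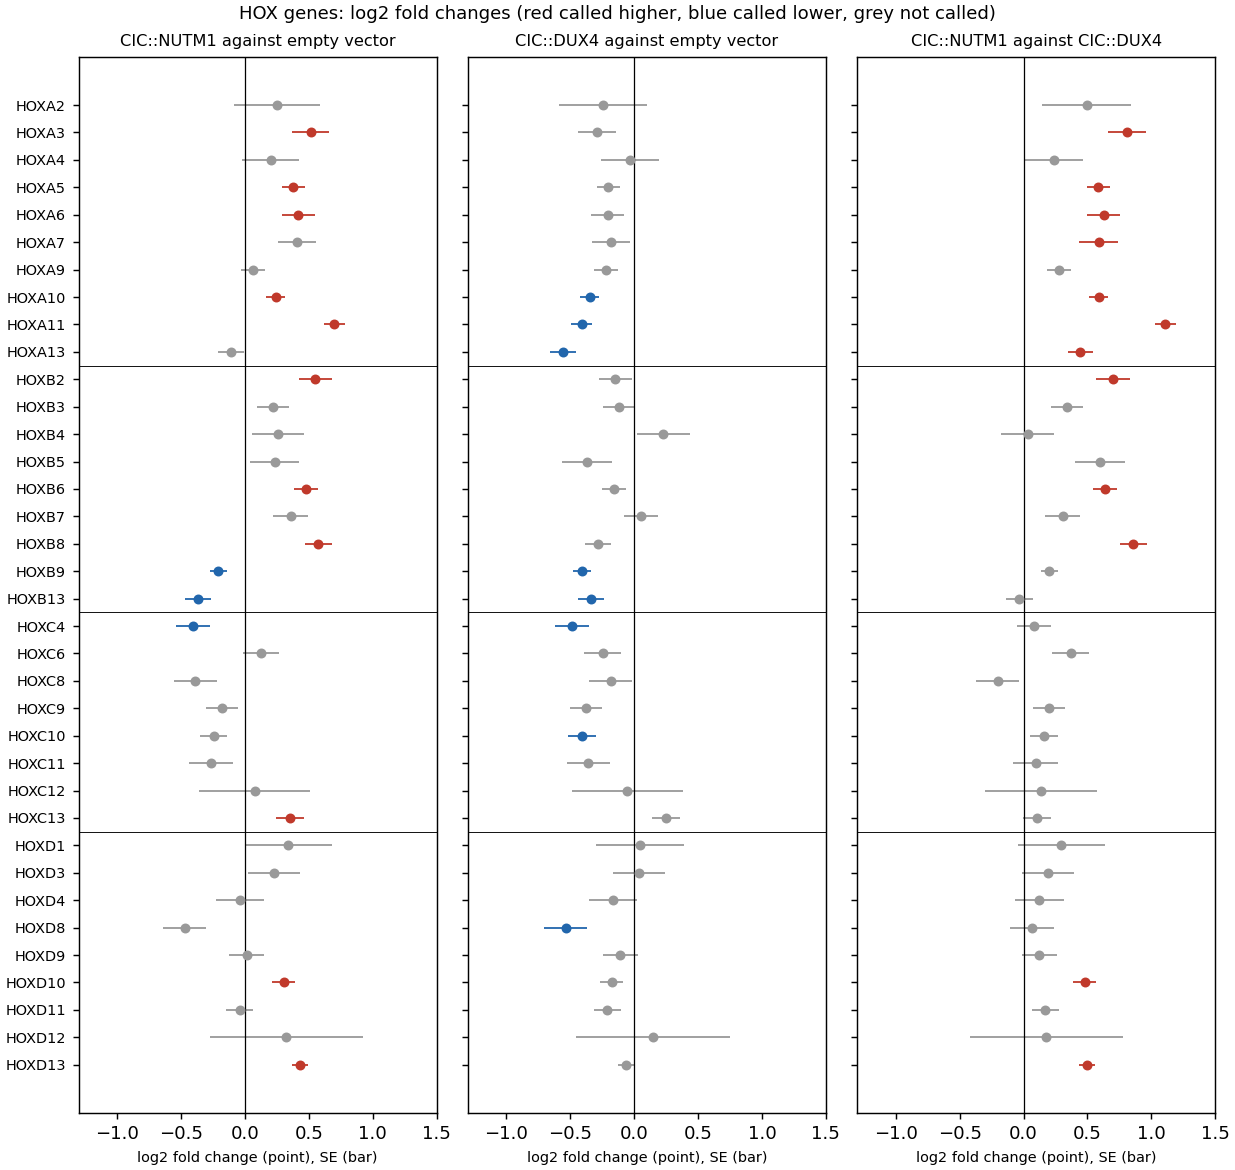
Log2 fold change (point) with its SE (bar) of the 36 tested HOX genes in the 3 comparisons, from edgeR, by cluster; red and blue mark genes called higher and lower at an adjusted p under 0.05. The points lie mostly to the right with CIC::NUTM1 (25 of 36) and mostly to the left with CIC::DUX4 (30 of 36).

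The HOXA cluster had the highest median difference between the fusions. Of its 10 members 5 rose with CIC::NUTM1, 3 fell with CIC::DUX4, and 7 were higher in CIC::NUTM1 than in CIC::DUX4 cells. The shares of all genes tested were 11.5%, 1.27% and 4.97%. The median log2 fold change between the fusions was 0.59 for HOXA, 0.34 for HOXB, 0.12 for HOXC and 0.18 for HOXD. All 10 had a negative log2 fold change with CIC::DUX4, from −0.55 to −0.03. HOXA11, a kidney and limb patterning gene, was at 59.1, 60.2 and 63.1 CPM with empty vector, 105.4, 88.9 and 102.4 with CIC::NUTM1, and 43.8, 48.9 and 44.5 with CIC::DUX4. The 3 groups did not overlap, with CIC::NUTM1 on top and CIC::DUX4 at the bottom. HOXA11 rose by 62.4% with CIC::NUTM1 (log2 fold change 0.70 ± 0.08 SE, edgeR adjusted p = 3.9e-07) and fell by 0.41 ± 0.08 on the log2 scale with CIC::DUX4 (edgeR adjusted p = 0.00115). Between the fusions it differed by 1.11 ± 0.08 (edgeR adjusted p = 2.07e-09), more than any other member. Its antisense transcript HOXA11-AS, which overlaps its exons on the other strand, was at 11.0 ± 1.89, 13.4 ± 2.56 and 13.4 ± 2.27 CPM in empty vector, CIC::NUTM1 and CIC::DUX4 (SD, n = 3) and was not called in any comparison.

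HOXA10, a gene of the uterus and hindlimb that is also active in blood progenitors, followed the same order with smaller steps. It was at 119, 122 and 128 CPM with empty vector, 165, 133 and 139 with CIC::NUTM1, and 97.4, 96.7 and 95.8 with CIC::DUX4. The groups did not overlap here either. HOXA10 rose by 0.24 ± 0.07 on the log2 scale with CIC::NUTM1 (edgeR adjusted p = 0.024) and fell by 0.35 ± 0.07 with CIC::DUX4 (edgeR adjusted p = 0.00234), and the fusions differed by 0.59 ± 0.07 (edgeR adjusted p = 5.59e-06). The rise was lost with library totals or upper quartile factors as scaling (adjusted p up to 0.0639), and without empty vector replicate 1, empty vector replicate 2 or CIC::NUTM1 replicate 1 (adjusted p up to 0.195, log2 fold change down to 0.14). The fall with CIC::DUX4 kept its call without each library in turn (adjusted p up to 0.0245).

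HOXA13, the last gene of the cluster and a distal limb and urogenital gene, was at 57.0, 51.1 and 54.6 CPM with empty vector, 48.3, 57.2 and 44.8 with CIC::NUTM1, and 32.2, 40.3 and 38.3 with CIC::DUX4. Only the CIC::DUX4 libraries stood apart, below both other groups. HOXA13 fell by 0.55 ± 0.10 on the log2 scale with CIC::DUX4 (edgeR adjusted p = 0.000389), the largest called fall of any member. Its log2 fold change with CIC::NUTM1 was −0.11 ± 0.10 (edgeR adjusted p = 0.533), and it was higher in CIC::NUTM1 than in CIC::DUX4 cells by 0.45 ± 0.10 (edgeR adjusted p = 0.00596). The last call was lost without CIC::NUTM1 replicate 2 or CIC::DUX4 replicate 1 (adjusted p up to 0.0621).

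**Figure D3:**
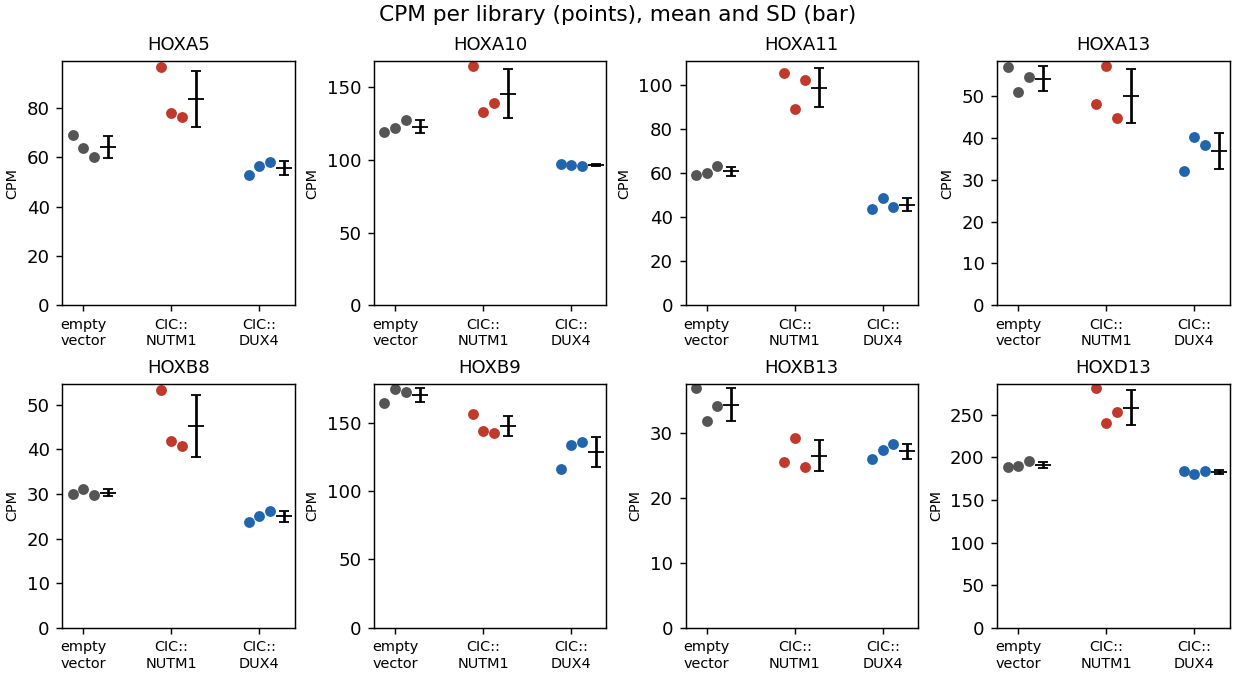
CPM of 8 HOX genes in each library (points) with the mean and SD of each group of 3 (bar), linear axes from 0. HOXA10 and HOXA11 show CIC::NUTM1 above and CIC::DUX4 below the empty vector, HOXD13 was called with CIC::NUTM1 and not with CIC::DUX4, HOXA13 with CIC::DUX4 and not with CIC::NUTM1, and HOXB9 and HOXB13 lie lower with both fusions.

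HOXA3, HOXA5 and HOXA6 rose with CIC::NUTM1 and were not called with CIC::DUX4. HOXA5, which patterns the lung and neck, was at 69.0, 63.7 and 60.2 CPM with empty vector, 96.9, 77.9 and 76.3 with CIC::NUTM1, and 52.7, 56.6 and 58.1 with CIC::DUX4. All CIC::NUTM1 libraries lay above all others, and the rise was 0.38 ± 0.09 on the log2 scale (edgeR adjusted p = 0.00335). HOXA3, a pharyngeal arch gene, was at 23.2, 18.0 and 23.6 CPM with empty vector, 37.9, 29.6 and 25.2 with CIC::NUTM1, and 15.6, 16.8 and 20.7 with CIC::DUX4. Its rise was 0.52 ± 0.14 (edgeR adjusted p = 0.0164), with no overlap between CIC::NUTM1 and either other group. HOXA6, a gene of the thoracic region, was at 22.7, 16.8 and 18.2 CPM with empty vector, 27.6, 26.9 and 22.2 with CIC::NUTM1, and 15.8, 16.1 and 17.9 with CIC::DUX4. It rose by 0.42 ± 0.13 (edgeR adjusted p = 0.0247), although the lowest CIC::NUTM1 library lay below the highest empty vector library. HOXA3 lost this call without empty vector replicate 2 or CIC::NUTM1 replicate 1 (adjusted p up to 0.123), and HOXA6 without empty vector replicates 2 or 3 or CIC::NUTM1 replicates 1 or 2 (adjusted p up to 0.15).

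HOXA7, which works in blood progenitors and the trunk skeleton, was called between the fusions. It was at 16.0, 25.9 and 19.2 CPM with empty vector, 30.2, 24.4 and 27.4 with CIC::NUTM1, and 20.1, 15.1 and 19.1 with CIC::DUX4. The empty vector libraries spanned much of the range of both other groups, while CIC::NUTM1 lay wholly above CIC::DUX4, by 0.59 ± 0.15 on the log2 scale (edgeR adjusted p = 0.0187). This call was lost without CIC::NUTM1 replicates 1 or 3 or CIC::DUX4 replicate 2 (adjusted p up to 0.116), and with a GC content offset and replicate block together (adjusted p = 0.0524). Against empty vector HOXA7 stood at 0.41 with CIC::NUTM1 (edgeR adjusted p = 0.0722), and it was called there by limma-trend and without a filter (adjusted p down to 0.0187). HOXA3 differed between the fusions by 0.81 ± 0.15, HOXA5 by 0.58 ± 0.09 and HOXA6 by 0.63 ± 0.13, each called higher with CIC::NUTM1. HOXA2, HOXA4 and HOXA9 were called in no comparison. HOXA9, a regulator of blood stem cells and the HOXA gene best known in leukaemia, was at 50.2 ± 2.28 CPM with empty vector, 52.4 ± 6.21 with CIC::NUTM1 and 43.1 ± 3.38 with CIC::DUX4 (SD, n = 3).

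In the HOXB cluster HOXB2, HOXB6 and HOXB8 rose with CIC::NUTM1, and HOXB9 and HOXB13 fell with both fusions. Of its 9 tested members 3 rose and 2 fell with CIC::NUTM1, and 2 fell with CIC::DUX4. The shares of all genes tested were 11.5%, 3.83% and 1.27%. HOXB8, active in myeloid progenitors and in sensory circuits of the spinal cord, was at 30.1, 31.1 and 29.8 CPM with empty vector, 53.3, 41.9 and 40.8 with CIC::NUTM1, and 23.7, 25.0 and 26.2 with CIC::DUX4. The 3 groups did not overlap. It rose by 0.58 ± 0.10 on the log2 scale with CIC::NUTM1 (edgeR adjusted p = 0.000189), was −0.28 ± 0.11 with CIC::DUX4 (edgeR adjusted p = 0.112), and differed between the fusions by 0.86 ± 0.10 (edgeR adjusted p = 3.64e-06).

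HOXB6, a gene of the lateral mesoderm, was at 70.9, 60.4 and 62.4 CPM with empty vector, 104.5, 78.2 and 87.1 with CIC::NUTM1, and 52.6, 61.0 and 59.8 with CIC::DUX4. Its rise with CIC::NUTM1 was 0.48 ± 0.10 on the log2 scale (edgeR adjusted p = 0.000774), with no overlap. HOXB2, a hindbrain gene, was at 14.1, 13.4 and 16.1 CPM with empty vector, 23.1, 21.1 and 19.8 with CIC::NUTM1, and 13.96, 11.6 and 13.9 with CIC::DUX4. It rose by 0.55 ± 0.13 (edgeR adjusted p = 0.00342), again with every CIC::NUTM1 library above all others. Between the fusions HOXB6 differed by 0.64 ± 0.10 and HOXB2 by 0.70 ± 0.13 (edgeR adjusted p = 8.54e-05 and 0.000904). The calls of HOXB2, HOXB6 and HOXB8 with CIC::NUTM1 held without each library in turn.

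HOXB9, second of all members per length and a gene of the thoracic skeleton and mammary gland, was at 164, 174 and 172 CPM with empty vector, 156, 144 and 142 with CIC::NUTM1, and 116, 133 and 136 with CIC::DUX4. Every library with a fusion lay below every library with empty vector. HOXB9 fell by 0.41 ± 0.07 on the log2 scale with CIC::DUX4 (edgeR adjusted p = 0.000151) and by 0.21 ± 0.07 with CIC::NUTM1 (edgeR adjusted p = 0.0401). HOXB13, a prostate gene set apart from the rest of the cluster, was at 37.0, 31.9 and 34.2 CPM with empty vector, 25.5, 29.2 and 24.8 with CIC::NUTM1, and 25.9, 27.4 and 28.3 with CIC::DUX4. It too lay lower in all 6 fusion libraries, by −0.37 ± 0.10 with CIC::NUTM1 (edgeR adjusted p = 0.0134) and −0.34 ± 0.10 with CIC::DUX4 (edgeR adjusted p = 0.039). The fusions differed by 0.20 ± 0.07 for HOXB9 (edgeR adjusted p = 0.085) and by −0.03 ± 0.10 for HOXB13 (edgeR adjusted p = 0.916), neither of them called, although HOXB9 was called higher in CIC::NUTM1 cells with GC content offsets (adjusted p down to 0.0115).

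The fall of HOXB9 with CIC::NUTM1 was lost without any of the empty vector libraries or without CIC::NUTM1 replicates 2 or 3 (adjusted p up to 0.128, log2 fold change −0.25 to −0.19), and that of HOXB13 without empty vector replicate 1 or CIC::NUTM1 replicate 3 (adjusted p up to 0.0784). With CIC::DUX4 the call of HOXB13 was lost without empty vector replicates 1 or 3 or CIC::DUX4 replicates 1 or 2 (adjusted p up to 0.187). HOXB3, HOXB4, HOXB5 and HOXB7 were called in no comparison. HOXB5, which takes part in gut innervation, was at 8.88 ± 0.924, 10.49 ± 2.34 and 6.85 ± 1.57 CPM in empty vector, CIC::NUTM1 and CIC::DUX4 (SD, n = 3). Between the fusions it differed by 0.60 ± 0.19 (edgeR adjusted p = 0.0659), which was called with the replicate number as a block (adjusted p = 0.0297) and in 4 of 11 alternatives in all.

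In the HOXC cluster no difference between the fusions was called, and negative log2 fold changes outnumbered positive ones with both (5 of 8 with CIC::NUTM1, 7 of 8 with CIC::DUX4). Of 8 tested members 1 rose and 1 fell with CIC::NUTM1, and 2 fell with CIC::DUX4. The shares of all genes were 11.5% higher and 3.83% lower with CIC::NUTM1 and 1.27% lower with CIC::DUX4. The 1 rise of 8 is thus near the share of all genes. The median log2 fold change of the cluster was −0.21 with CIC::NUTM1, where the other 3 clusters had medians of 0.32 (HOXA), 0.26 (HOXB) and 0.23 (HOXD). Between the fusions 0 of 8 were called by edgeR, DESeq2 or limma-trend, and 1 had an unadjusted p under 0.05 in edgeR, HOXC6, with a log2 fold change of 0.37 ± 0.14. Among all genes 4.97% were called higher and 1.64% lower in that comparison, so 0 of 8 is near the share of all genes. HOXC4, studied in lymphocytes, was at 38.4, 30.3 and 37.6 CPM with empty vector, 26.1, 31.7 and 21.8 with CIC::NUTM1, and 22.0, 24.2 and 29.5 with CIC::DUX4. It fell by 0.49 ± 0.13 on the log2 scale with CIC::DUX4 (edgeR adjusted p = 0.0247) and by 0.41 ± 0.13 with CIC::NUTM1 (edgeR adjusted p = 0.0442), and 1 CIC::NUTM1 library overlapped the empty vector range. Its exons overlap those of HOXC5 and HOXC6 on the same strand, so reads may be shared among them.

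HOXC10, a motor neuron and hindlimb gene, was at 28.2, 29.5 and 27.7 CPM with empty vector, 24.7, 21.9 and 25.8 with CIC::NUTM1, and 20.4, 23.9 and 20.1 with CIC::DUX4. All 6 fusion libraries lay below the empty vector libraries. The fall of 0.41 ± 0.11 on the log2 scale with CIC::DUX4 was called (edgeR adjusted p = 0.0165), and the value of −0.24 ± 0.11 with CIC::NUTM1 was not (edgeR adjusted p = 0.141). HOXC13, a hair and nail gene, went the other way, at 28.8, 33.7 and 38.2 CPM with empty vector, 49.6, 37.9 and 42.0 with CIC::NUTM1, and 43.2, 37.5 and 39.5 with CIC::DUX4. It rose by 0.35 ± 0.11 with CIC::NUTM1 (edgeR adjusted p = 0.0277), with 1 library overlapping, and was 0.25 ± 0.11 with CIC::DUX4 (edgeR adjusted p = 0.196). HOXC6, HOXC8, HOXC9, HOXC11 and HOXC12 were called in no comparison, although HOXC9 with CIC::DUX4 (−0.38, edgeR adjusted p = 0.0636) was called lower in 4 of 11 alternatives (adjusted p down to 0.0114).

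Each of these HOXC calls was lost without some single library. With CIC::NUTM1, HOXC4 lost its call without empty vector replicates 1 or 3 or CIC::NUTM1 replicates 1 or 3 (adjusted p up to 0.166), and with the replicate number as a block (adjusted p = 0.0699). With a GC content offset and replicate block together HOXC4 lost its call with both fusions (adjusted p = 0.0948 with CIC::NUTM1 and 0.0668 with CIC::DUX4). HOXC13 lost its call without empty vector replicates 1 or 2 or CIC::NUTM1 replicates 1 or 3 (adjusted p up to 0.185) and with library totals or upper quartile factors (adjusted p up to 0.052). With CIC::DUX4, HOXC4 lost its call without empty vector replicates 1 or 3 or CIC::DUX4 replicates 1 or 2 (adjusted p up to 0.165), and HOXC10 without empty vector replicate 2 or CIC::DUX4 replicates 1 or 3 (adjusted p up to 0.103).

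In the HOXD cluster 2 of 9 members rose with CIC::NUTM1 and 1 fell with CIC::DUX4. The shares of all genes tested were 11.5% and 1.27%. HOXD13 was at 188, 190 and 195 CPM with empty vector, 281.5, 241 and 253 with CIC::NUTM1, and 184, 180.4 and 184.5 with CIC::DUX4. The CIC::NUTM1 libraries lay above all others, and HOXD13 rose by 35.1% (log2 fold change 0.43 ± 0.06, edgeR adjusted p = 1.05e-05). The CIC::DUX4 libraries lay just below those with empty vector, and that log2 fold change was −0.06 ± 0.06 (edgeR adjusted p = 0.655). Between the fusions it was 0.50 ± 0.06 (edgeR adjusted p = 5.5e-06). HOXD10, a gene of lumbar motor neurons and hindlimb, was at 43.9, 41.5 and 39.7 CPM with empty vector, 54.3, 48.3 and 52.0 with CIC::NUTM1, and 38.3, 38.9 and 33.5 with CIC::DUX4. It stood highest in the CIC::NUTM1 libraries with no overlap (log2 fold change 0.31 ± 0.09, edgeR adjusted p = 0.0191), and it differed between the fusions by 0.48 ± 0.09 (edgeR adjusted p = 0.000914).

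HOXD8, a trunk gene, was at 12.0, 11.6 and 15.3 CPM with empty vector, 11.4, 8.99 and 7.77 with CIC::NUTM1, and 8.43, 8.58 and 9.88 with CIC::DUX4. The libraries of both fusions lay below those with empty vector. HOXD8 fell by 0.54 ± 0.17 on the log2 scale with CIC::DUX4 (edgeR adjusted p = 0.0459), and its value with CIC::NUTM1 was −0.47 ± 0.17 (edgeR adjusted p = 0.058). The latter was called in 6 of 11 alternatives, among them DESeq2, library totals and upper quartile factors (adjusted p down to 0.0347). The call of HOXD8 was lost without empty vector replicates 1 or 3 or CIC::DUX4 replicates 1 or 2 (adjusted p up to 0.309), and that of HOXD10 with CIC::NUTM1 without empty vector replicates 2 or 3 or CIC::NUTM1 replicates 1 or 3 (adjusted p up to 0.107). HOXD8 was also not called with at least 10 counts in every library, with limma-trend or with the replicate number as a block (adjusted p up to 0.0574). HOXD1, HOXD3, HOXD4, HOXD9, HOXD11 and HOXD12 were called in no comparison. HOXD11, the HOXD paralog of HOXA11, was at 26.98 ± 1.38, 26.2 ± 1.90 and 23.3 ± 1.43 CPM (SD, n = 3) in empty vector, CIC::NUTM1 and CIC::DUX4.

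The 18 tested members that were called in no comparison ranged in mean level from 0.697 CPM (HOXD12) to 48.6 CPM (HOXA9). With CIC::NUTM1 their log2 fold changes ran from −0.39 (HOXC8) to 0.36 (HOXB7), 13 of them positive. With CIC::DUX4 they ran from −0.38 (HOXC9) to 0.23 (HOXB4), 13 of them negative. Between the fusions they ran from −0.20 (HOXC8) to 0.60 (HOXB5), 17 of them positive. Among the 26 members with a mean of at least 10 CPM, the median coefficient of variation within a group was 8.04% with empty vector, 11.7% with CIC::NUTM1 and 8.02% with CIC::DUX4.

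Paralogs of 1 number did not move as a unit. Of the genes with number 13, HOXA13 fell with CIC::DUX4 only, HOXB13 fell with both fusions, and HOXC13 and HOXD13 rose with CIC::NUTM1. For number 11, HOXA11 was called in all 3 comparisons, and HOXC11 and HOXD11 in none. By position, 2 of 6 tested members with numbers 1 to 3 rose with CIC::NUTM1, as did 4 of 14 with numbers 4 to 8 and 5 of 16 with numbers 9 to 13. The falls with CIC::DUX4 numbered 0 of 6, 2 of 14 and 6 of 16 in the same classes. Among all genes tested 11.5% rose with CIC::NUTM1 and 1.27% fell with CIC::DUX4, so 0 of 6 is near the share of all genes. Of these 6 members, HOXA2 and HOXD1 were at only 1.80 and 1.83 CPM with empty vector. For the 0 of 6 in edgeR, the count was also 0 at an unadjusted p under 0.05 and with DESeq2 and limma-trend. Whether these shares differ between classes was not tested.

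Summed over its members, the HOXA cluster made 420.6 ± 7.84 CPM with empty vector, 522.7 ± 49.3 with CIC::NUTM1 and 337.2 ± 13.1 with CIC::DUX4 (SD, n = 3). The 3 groups did not overlap. The HOXB sum was 368.7 ± 4.195, 396.6 ± 37.1 and 304 ± 17.3 CPM (SD, n = 3), with CIC::DUX4 below both others and the first 2 groups overlapping. The HOXC sum was 165.3 ± 5.23, 155.5 ± 13.6 and 141.7 ± 5.99 CPM (SD, n = 3). The HOXD sum was 307.8 ± 4.17, 382 ± 29.8 and 285.2 ± 1.56 CPM (SD, n = 3), and these groups did not overlap. Within the total of all members, the share of HOXC was 13.1 ± 0.326% with empty vector, 10.7 ± 0.422% with CIC::NUTM1 and 13.3 ± 0.466% with CIC::DUX4, and the share of HOXA was 33.3 ± 0.155%, 35.9 ± 0.350% and 31.6 ± 0.246% (SD, n = 3). Sums weigh abundant and long transcripts more than others, and no test was made of them.

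**Figure D4:**
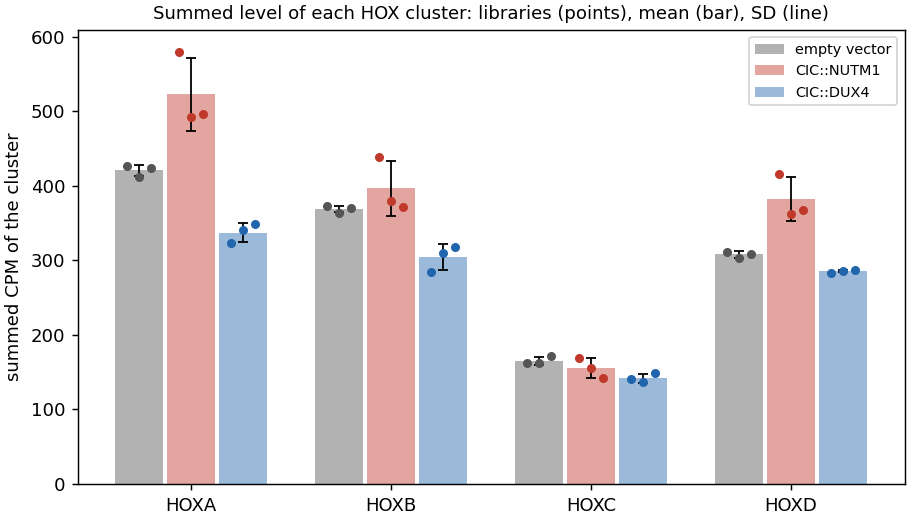
Summed CPM of the members of each HOX cluster in empty vector (grey), CIC::NUTM1 (red) and CIC::DUX4 (blue), with 1 point per library, bars for the mean and lines for the SD of 3 libraries. HOXA shows the widest spacing, at 420.6, 522.7 and 337.2 CPM, and CIC::NUTM1 replicate 1 is the highest point of its group in each cluster.

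The count of rises depended on single libraries, a CIC::NUTM1 library and an empty vector library among them. CIC::NUTM1 replicate 1 had the highest value of its group for 26 members, and its HOX total was 1604 CPM against 1389 and 1377 in the other CIC::NUTM1 libraries. The HOX totals with empty vector were 1272, 1241 and 1274 CPM. Without CIC::NUTM1 replicate 1, 6 members rose with CIC::NUTM1 in place of 11: HOXA5, HOXA11, HOXB2, HOXB6, HOXB8 and HOXD13. HOXA11 then stood at 0.65 on the log2 scale (edgeR adjusted p = 2.83e-06) and HOXD13 at 0.37 (edgeR adjusted p = 6.55e-05). Lower members without it were HOXB9, HOXB13 and HOXD8, whereas without empty vector replicate 1 or CIC::NUTM1 replicate 3 the number of falls was 0 in edgeR. Without empty vector replicate 2 the number of members that rose was 7, and HOXA3, HOXA6, HOXA10, HOXC13 and HOXD10 lost their call in either case. Between the fusions 11 members were higher without CIC::NUTM1 replicate 1, in place of 12. The 8 falls with CIC::DUX4 became 4 without CIC::DUX4 replicate 1 and 5 without CIC::DUX4 replicate 2, empty vector replicate 1 or empty vector replicate 3, and the falls of HOXA10, HOXA11, HOXA13 and HOXB9 were called without each library in turn.

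Several cofactors that bind DNA with HOX proteins rose with CIC::NUTM1. Of 9 TALE homeobox genes tested (PBX, MEIS and PKNOX families) 4 rose with CIC::NUTM1, 1 rose with CIC::DUX4, 4 were higher in CIC::NUTM1 than in CIC::DUX4 cells, and no fall was called by edgeR. Of all genes tested 11.5%, 6.96% and 4.97% were called higher in these comparisons, so the 1 of 9 with CIC::DUX4 is near the share of all genes. PBX3, a partner of HOXA9 in blood cells, rose from 30.7 ± 2.55 to 84.7 ± 14.9 CPM with CIC::NUTM1 (log2 fold change 1.46 ± 0.12, edgeR adjusted p = 3.79e-08) and to 52.0 ± 6.86 CPM with CIC::DUX4 (0.76 ± 0.12, edgeR adjusted p = 0.000227). MEIS1, which stabilises HOX binding, rose from 17.02 ± 1.59 to 33.98 ± 7.23 CPM with CIC::NUTM1 (1.00 ± 0.13, edgeR adjusted p = 3.28e-06) and was at 19.8 ± 0.182 CPM with CIC::DUX4 (SD, n = 3). MEIS2 rose by 0.52 ± 0.10 and PKNOX2 by 0.87 ± 0.11 on the log2 scale (edgeR adjusted p = 0.000331 and 2.89e-06). The median log2 fold change of the 9 was 0.09 with CIC::NUTM1, since the other five were not called.

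**Figure D5:**
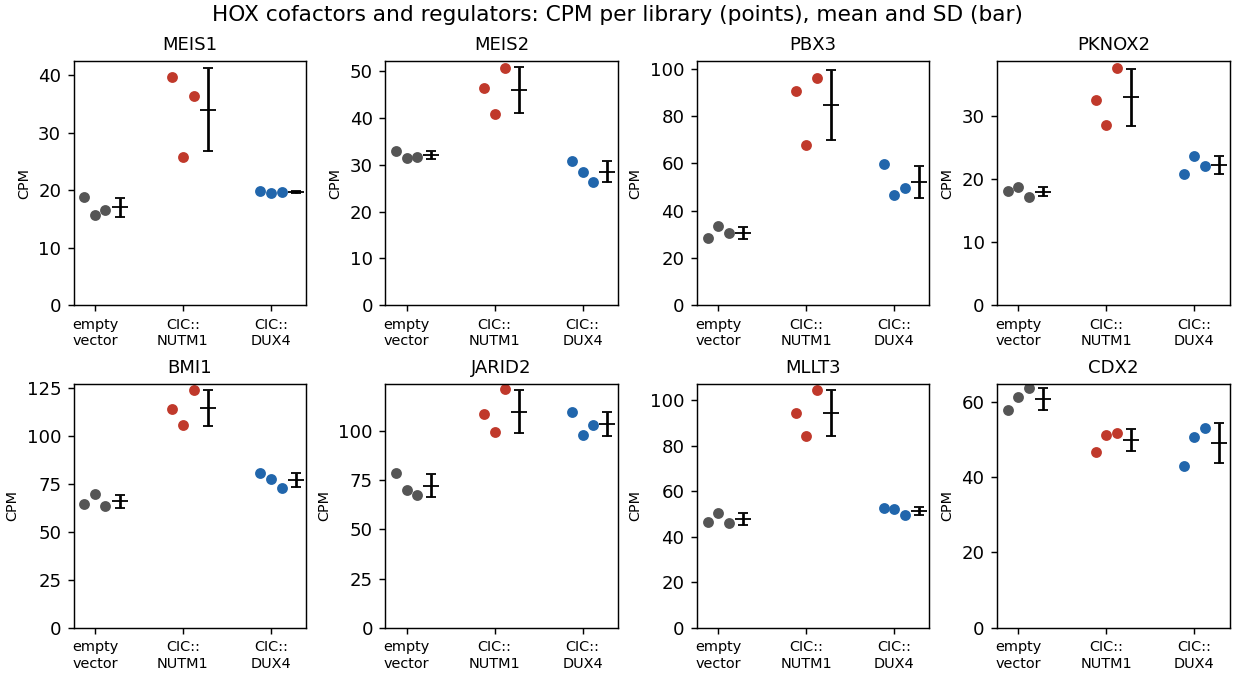
CPM of 8 HOX cofactor and regulator genes in each library (points), with the mean and SD of each group of 3 (bar), linear axes from 0. MEIS1, BMI1 and MLLT3 stand apart with CIC::NUTM1. PBX3 lies higher with both fusions and highest with CIC::NUTM1, and JARID2 lies higher and CDX2 lower with both.

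Genes of the chromatin systems that hold HOX genes off or on gave mixed counts. Of 24 Polycomb genes 7 rose and 2 fell with CIC::NUTM1, 3 rose and 1 fell with CIC::DUX4, and 2 were higher in CIC::NUTM1 than in CIC::DUX4 cells. Their median log2 fold changes were 0.06, −0.02 and 0.07. Of all genes 11.5% rose and 3.83% fell with CIC::NUTM1, and 6.96% rose and 1.27% fell with CIC::DUX4. Between the fusions 4.97% of all genes were called higher, so the 2 of 24 is near that share. BMI1, a core subunit of Polycomb repressive complex 1, rose from 65.9 ± 3.30 to 114.7 ± 9.32 CPM with CIC::NUTM1 (log2 fold change 0.80 ± 0.08, edgeR adjusted p = 2.23e-08) and was at 77.2 ± 3.75 CPM with CIC::DUX4 (SD, n = 3). JARID2 and PHF1, accessory subunits of Polycomb repressive complex 2, and EZH2, its H3K27 methyltransferase, rose with both fusions. Their log2 fold changes were 0.61 ± 0.08, 0.70 ± 0.12 and 0.39 ± 0.08 with CIC::NUTM1 and 0.52 ± 0.08, 0.51 ± 0.12 and 0.35 ± 0.08 with CIC::DUX4. RBBP7, a histone-binding subunit of several chromatin complexes, fell with both, by 0.19 ± 0.05 and 0.27 ± 0.05. Of 14 genes of Trithorax proteins, H3K27 demethylases and other chromatin factors 2 rose with CIC::NUTM1, a share near the 11.5% of all genes. These were MLLT3, a reader in the super elongation complex, from 47.7 ± 2.54 to 94.4 ± 9.92 CPM (0.98 ± 0.08, edgeR adjusted p = 3.06e-09), and KDM6B, an H3K27 demethylase, by 0.52 ± 0.08 (edgeR adjusted p = 4.89e-05). With CIC::DUX4, 0 of the 14 were called by edgeR, and at an unadjusted p under 0.05 there was 1 in each direction.

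Retinoic acid and CDX proteins are the main known inducers of HOX genes. Of 15 tested genes of retinoic acid signalling and the CDX family 4 rose and 2 fell with CIC::NUTM1, and 1 rose and 3 fell with CIC::DUX4. Of all genes 11.5% rose and 3.83% fell with the first fusion and 6.96% rose and 1.27% fell with the second, so the 1 rise with CIC::DUX4 is near the share of all genes. RXRG, a retinoid X receptor, rose from 5.15 ± 0.879 CPM to 24.0 ± 4.51 with CIC::NUTM1 and 20.6 ± 3.38 with CIC::DUX4 (log2 fold changes 2.19 ± 0.17 and 1.98 ± 0.17, edgeR adjusted p = 5.5e-10 and 5.4e-09). ALDH1A2, which makes retinoic acid, rose by 0.51 ± 0.08 with CIC::NUTM1 (edgeR adjusted p = 3.77e-05), and the receptor RARB by 0.49 ± 0.15 (edgeR adjusted p = 0.0218). CDX2, an activator of posterior HOX genes, fell from 60.8 ± 2.94 CPM to 49.9 ± 2.82 with CIC::NUTM1 and 49.0 ± 5.31 with CIC::DUX4 (−0.29 ± 0.09 and −0.32 ± 0.09, edgeR adjusted p = 0.0268 and 0.0229). CRABP2, a retinoic acid carrier, fell with both as well, by 0.32 ± 0.10 and 0.37 ± 0.10. CYP26B1, which degrades retinoic acid, fell with CIC::DUX4 by 0.59 ± 0.19 (edgeR adjusted p = 0.0491).

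Of 15 tested non-coding transcripts of the clusters 1 rose and 2 fell with CIC::NUTM1, where 11.5% of all genes rose and 3.83% fell. With CIC::DUX4 0 were called by edgeR, and 1 was higher at an unadjusted p under 0.05. HOXA-AS3, whose exons overlap HOXA3, HOXA4, HOXA6 and HOXA7 on the other strand, was at 6.16 ± 1.39 CPM with empty vector, 9.44 ± 0.198 with CIC::NUTM1 and 5.82 ± 0.902 with CIC::DUX4 (SD, n = 3), and it rose by 0.63 ± 0.19 with CIC::NUTM1 (edgeR adjusted p = 0.0248). HOTAIR, a long RNA of the HOXC cluster known for its ties to Polycomb complexes, fell by 0.59 ± 0.16 with CIC::NUTM1 (edgeR adjusted p = 0.0112), and HAGLR in the HOXD cluster fell by 0.40 ± 0.14 (edgeR adjusted p = 0.0446). Of the 18 called members, 12 have exons that overlap another annotated gene, and whether the authors' counting used strand is not given in the sources used here, so reads of such pairs may have been shared. The 6 without overlap were HOXA5, HOXB8, HOXB9, HOXB13, HOXD8 and HOXD13, and they include rises and falls.

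Among 12 tested genes that flank the clusters, 1 rose and 1 fell with CIC::NUTM1 and 1 fell with CIC::DUX4. The shares of all genes were 11.5% higher and 3.83% lower with CIC::NUTM1 and 1.27% lower with CIC::DUX4. The 1 rise of 12 is thus near the share of all genes. SKAP2, an adaptor protein gene beside the HOXA cluster, was at 55.9 ± 3.09 CPM with empty vector, 72.0 ± 9.20 with CIC::NUTM1 and 48.8 ± 5.33 with CIC::DUX4 (SD, n = 3), and it was called higher with CIC::NUTM1 against empty vector (0.37 ± 0.10, edgeR adjusted p = 0.00823) and against CIC::DUX4 (0.56 ± 0.10, edgeR adjusted p = 0.000337). CBX5, which encodes the heterochromatin protein HP1 alpha beside the HOXC cluster, fell by 0.37 ± 0.09 with CIC::NUTM1 (edgeR adjusted p = 0.00789). CALCOCO2, an autophagy receptor gene near the HOXB cluster, fell by 0.31 ± 0.08 with CIC::DUX4 (edgeR adjusted p = 0.0185).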

How the data were processed

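The data are bulk RNA-seq of 9 libraries of 293T cells in 3 groups of 3. The authors deposited a table of raw counts by Ensembl gene ID and a table of log2 CPM for 15811 named genes, 36 of them members. Per the submitters' processing notes STAR 2.7.10b, R 4.2.2, edgeR 3.40.2 and GRCh38 were used, with roles not given. The counting program, annotation and use of strand are not given in the sources used here. Per the labels' protocols the libraries are directional.

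Symbols matched 62622 of 62700 IDs. Of 39 genes matching the name pattern, 1 is not reported here, nor is 1 gene of another list by name. The members and lists were chosen with earlier results of these data known. Every member is accounted for, values by library are given for members called at least once and the 4 highest per length, and genes of other lists are named where called, up to 6 a list.

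Counts were tested with edgeR 4.0.16 (R 4.3.3): filterByExpr, TMM scaling, a robust quasi-likelihood fit with 1 mean per group over all 9 libraries, and Benjamini-Hochberg adjustment over all 17576 genes tested. The procedure was tested on simulated data with changes of 1 or more in size on the log2 scale. Its recovery of smaller changes, such as those of most called members, was not tested. Each SE is the size of the log2 change over the square root of its F. Exon lengths, positions and overlaps are from GENCODE 29, promoter windows from RefSeq. Replicates were transfected on separate days, so p-values measure the spread between such transfections of 1 line. Alternatives were other scalings and filters, DESeq2 1.42.0, limma-trend (limma 3.58.1) on the deposited log2 CPM, fits restricted to both groups compared, a replicate block, each library left out, a minimum change of 1 and offsets for GC content. Libraries of 1 group differed beyond counting noise (chi-square per degree of freedom 5.73 to 9.71). Figures used matplotlib 3.10.9.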

Additional observations from a re-analysis of the deposited data

Results flagged for a closer look

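HOXA11 and HOXA10 stood out because each was called in opposite directions with the 2 fusions against the same empty vector libraries, and the direct comparison of the fusions was called as well. HOXA11 differed between CIC::NUTM1 and CIC::DUX4 by 1.11 on the log2 scale and HOXA10 by 0.59, both by edgeR's quasi-likelihood test over all genes. All 3 CIC::NUTM1 libraries lay above the empty vector and all 3 CIC::DUX4 libraries below it for both genes. Both differences between the fusions kept their call without each library in turn. The rise of HOXA10 with CIC::NUTM1 against empty vector (0.24) was less stable: it lost its call without 3 of 6 libraries (log2 fold change down to 0.14) and with library totals or upper quartile factors.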

How the results depend on the processing

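No called log2 fold change of a member reversed under any alternative run. With each library left out, members that rose with CIC::NUTM1 numbered 6 to 12, those that fell 0 to 3, falls with CIC::DUX4 4 to 8, and members higher with CIC::NUTM1 than CIC::DUX4 11 to 13. All genes called then numbered 1920 to 3111 with CIC::NUTM1, 865 to 1487 with CIC::DUX4 and 690 to 1264 between the fusions. Requiring a log2 change of 1 or more left 0 members higher and 0 lower with CIC::NUTM1, 0 lower with CIC::DUX4 and 1 higher between the fusions, and 865, 673 and 240 genes of all. With at least 10 counts in every library 961 genes were called with CIC::DUX4. The HOXD sum with CIC::DUX4 was 288.4 CPM with library totals, and the HOXB sum with empty vector was 373.2 CPM with upper quartile factors. Library totals lowered the share of higher calls among all genes from 75% to 61% with CIC::NUTM1 (1783 higher, 1138 lower), upper quartile factors to 61.7% (1807 and 1124), and between the fusions library totals lowered it from 75.2% to 61.4% (695 and 437). Members then called with CIC::NUTM1 were 9 higher and 4 lower under either, and medians of all genes moved by at most 0.05. Offsets for GC content were chosen after seeing the data. The cause of these shifts was not tested.

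With a replicate block 11 members rose and 2 fell with CIC::NUTM1, 7 fell with CIC::DUX4 and 13 were higher between the fusions. The block ended the calls of HOXC4 with CIC::NUTM1 and HOXD8 with CIC::DUX4, made a call of HOXB5 between the fusions, and changed no other call of a member. No clear pairing by number was seen. Same-numbered libraries of different groups had correlations of −0.031 to 0.075 over 9 pairs, and those with different numbers −0.108 to 0.07 over 18 pairs. Weak pairing was not tested.

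Values that changed sign belonged to members not called in the comparison concerned. HOXD9 with CIC::NUTM1 was −0.0287 with library totals, −0.0266 with upper quartile factors and −0.0056 without a filter. HOXB4 between the fusions was −0.0127 with library totals and −0.0168 with limma-trend. HOXD12 with limma-trend was −0.0079 with CIC::NUTM1 and −0.13 between the fusions. The others changed sign when a library was left out. With CIC::NUTM1 the ranges were HOXA9 −0.0362 to 0.1309, HOXC12 −0.1268 to 0.2396, HOXC6 −0.0317 to 0.2481, HOXD12 −0.3717 to 0.7759, HOXD4 −0.1369 to 0.0696 and HOXD9 −0.0646 to 0.1495. With CIC::DUX4 the ranges were HOXA4 −0.1744 to 0.1946, HOXA7 −0.322 to 0.0326, HOXB3 −0.2028 to 0.0011, HOXB7 −0.0406 to 0.1336, HOXC12 −0.366 to 0.105, HOXD1 −0.1462 to 0.2126, HOXD12 −0.0641 to 0.3888, HOXD3 −0.0197 to 0.1387 and HOXD9 −0.2382 to 0.0285. Between the fusions the ranges were HOXB13 −0.1128 to 5e-04, HOXB4 −0.1309 to 0.2389, HOXC11 −0.0463 to 0.1743, HOXC12 −0.0693 to 0.4421, HOXC13 −0.007 to 0.19, HOXC4 −0.0743 to 0.2043, HOXD12 −0.5168 to 0.6359 and HOXD8 −0.0885 to 0.1669.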
